A study of Homo sapiens with 18 samples.

Results

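PC3 is an established human line from a bone metastasis of prostate adenocarcinoma, known to lack a working p53 and to grow without androgens. The comparison described here is that of PC3 cells transfected with the short RNA sCAG against PC3 cells transfected with the short RNA sNT8, which serves as the reference in all of the authors' tables. It rests on 6 libraries, 3 for each short RNA, out of 18 libraries in 6 groups. The 6 were taken by the library names of the deposited PC3 table for sCAG. All groups used below were of wild-type genotype per the labels, were transfected in 6-well plates with RNAiMax at 10 nM, and gave total RNA after 48 h. Beside the 3 sNT8 and 3 sCAG libraries of PC3, values are given for 3 PC3 libraries with the short RNA sG5C, and for 3 sNT8 and 3 sCAG libraries of HeyA8, an ovarian cancer line. Transfected replicates carry the letters A, B and C. The labels do not say whether they were separate cultures, so p-values measure the spread between these samples, which may be technical.

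The study concerns short RNAs that induce death by survival gene elimination (DISE), a form of cell death in which short RNAs loaded into the RNA-induced silencing complex repress genes that cells need. In RNA interference, an Argonaute protein holds a short guide RNA and acts on transcripts that pair with it, most strongly where pairing is extensive. The letters CTG are the reverse complement of CAG, the letters in the name of sCAG, whose own sequence was not analysed here. Double-stranded RNA in the cytosol can also be read as a sign of infection: the sensors RIG-I, MDA5 and PKR respond to it, interferons are made, and their receptors switch on interferon-stimulated genes through proteins of the STAT family.

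The genes with the longest CTG runs are shown first, because 10 of the 12 largest falls among protein-coding genes held a run of at least 4 CTG units in an annotated transcript, against 3.30% of the tested protein-coding genes. None of the 12 largest rises did (0 of 12). A run is a stretch of uninterrupted CTG units on the sense strand, and the longest run over all protein-coding transcripts of GENCODE 29 (GRCh38) counts for a gene. The sequences of C4orf48, BRI3BP, PRKCSH, LRRC59 and RPL14 are coding runs of genes among the 12 largest falls. That of PTTG1IP is read in another frame, and MAP3K4 and TMCC1 hold long coding runs but fell little. Capitals mark the run, and 9 bases on each side are in lower case.
C4orf48: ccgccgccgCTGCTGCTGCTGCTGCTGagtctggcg
BRI3BP: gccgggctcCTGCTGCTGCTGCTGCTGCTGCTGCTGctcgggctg
PRKCSH: ctgttgccgCTGCTGCTGCTGctacccatg
LRRC59: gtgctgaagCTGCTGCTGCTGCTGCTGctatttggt
RPL14: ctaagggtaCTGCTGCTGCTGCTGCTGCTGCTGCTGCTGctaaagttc
PTTG1IP: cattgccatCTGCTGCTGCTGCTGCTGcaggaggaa
MAP3K4: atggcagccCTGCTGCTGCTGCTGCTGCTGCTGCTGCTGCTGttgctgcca
TMCC1: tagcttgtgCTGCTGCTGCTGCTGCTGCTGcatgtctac

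The run of C4orf48 lies at chr4:2042403-2042420, plus strand, and begins at base 151 of the coding sequence. That of BRI3BP, with 9 units, lies at chr12:124993836-124993862, plus strand, from coding base 46. PRKCSH has 4 units at chr19:11436130-11436141, plus strand, from coding base 13. In LRRC59 the 6 units lie at chr17:50383147-50383164, minus strand, from coding base 748. All 4 of these runs are read in frame as CTG, a leucine codon. The 10 units of RPL14, at chr3:40462030-40462059, plus strand, are read in frame as GCT, an alanine codon, and the 6 units of PTTG1IP, at chr21:44856280-44856297, minus strand, as TGC, a cysteine codon. MAP3K4 has 11 units at chr6:161098319-161098351, plus strand, and TMCC1 has 7 units at chr3:129827838-129827858, minus strand, both read as GCT.

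After sCAG, C4orf48, which encodes a small secreted peptide precursor, had the largest fall by the rule for named genes. Its values were 573, 483 and 422 normalized counts in the sNT8 libraries and 21.5, 16.2 and 21.2 in the sCAG libraries, a 25.6-fold difference (log2 fold change -4.68 ± 0.17 SE, adjusted p = 3.13e-18; edgeR's quasi-likelihood test with Benjamini-Hochberg adjustment over all genes tested, as for every adjusted p here). PRKCSH encodes the beta subunit of glucosidase II, which trims sugars on new glycoproteins in the endoplasmic reticulum. It was measured at 18092, 16769.5 and 16129 normalized counts in the sNT8 libraries and 1239, 1257 and 1192 in the sCAG libraries, a 14.1-fold fall (log2 fold change -3.82 ± 0.05 SE, adjusted p = 8.56e-27). LRRC59, a ribosome-associated membrane protein of the endoplasmic reticulum, gave 13626, 14137 and 13672 normalized counts in the sNT8 libraries and 942, 967 and 1110.5 in the sCAG libraries and fell 14.1-fold (log2 fold change -3.81 ± 0.06 SE, adjusted p = 3.27e-26). In each of these 3 genes the groups lay far apart and replicates lay close together.

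BRI3BP, a membrane protein gene, read 1994, 1887 and 1740.4 normalized counts in the sNT8 libraries and 158, 114 and 135 in the sCAG libraries (log2 fold change -3.82 ± 0.09 SE, adjusted p = 1.79e-20). RPL14, a protein of the large ribosomal subunit, read 8146, 8201 and 8006 normalized counts in the sNT8 libraries and 556, 729 and 649 in the sCAG libraries (log2 fold change -3.69 ± 0.07 SE, adjusted p = 1.47e-20). Reads of RPL14 can be split with its near-identical processed pseudogene RPL14P1, so its level is uncertain, and the pseudogene read 3466, 3631 and 3577 normalized counts in the sNT8 libraries and 62.8, 70.3 and 73.7 in the sCAG libraries. SMO, the signal transducer of the hedgehog pathway, stood at 352, 331 and 419 normalized counts in the sNT8 libraries and 29.04, 31.6 and 26.8 in the sCAG libraries (log2 fold change -3.68 ± 0.16 SE, adjusted p = 1.13e-16). The groups of these genes did not overlap, and the sCAG libraries were the low ones in each.

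Among the 12 largest falls were also ASNSD1 (-3.74 on the log2 scale, 5 units), NUCB1, a calcium-binding protein of the Golgi (-3.70, 4 units), SRPX (-3.67, 7 units), COL1A2 (-3.97) and FAM111B (-3.67). COL1A2, a chain of type I collagen, and FAM111B, a protease gene, had runs of at most 2 units. Per library, COL1A2 read 182, 185 and 162 normalized counts in the sNT8 libraries and 8.43, 15.3 and 10.1 in the sCAG libraries. Its fitted change after sG5C was -4.24, and the direct difference between sCAG and sG5C was 0.28 ± 0.36 SE (adjusted p = 0.506, edgeR), which misses the threshold and does not show that both act alike.

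Across 13925 tested protein-coding genes with an annotated transcript, the share called lower rose with the length of the run. It was 26.6% of 11295 genes with 0 to 2 units, 34.8% of 2170 genes with 3 units, 52.5% of 299 genes with 4 units, 64.9% of 77 genes with 5 units and 77.4% of 84 genes with 6 or more. Over all 13970 protein-coding genes tested, 29% were called lower. The median log2 fold change went from 0.05 with 0 to 2 units to -0.31 with 4, -0.77 with 5 and -1.63 with 6 or more. These shares are descriptions and no test was made of them. In HeyA8 the same classes had medians of -0.03, -0.27, -0.79 and -1.23. After sG5C in PC3, the medians were -0.02, -0.02, 0.05 and 0.06, so the order by run length seen with sCAG did not appear there.

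**Figure D1:**
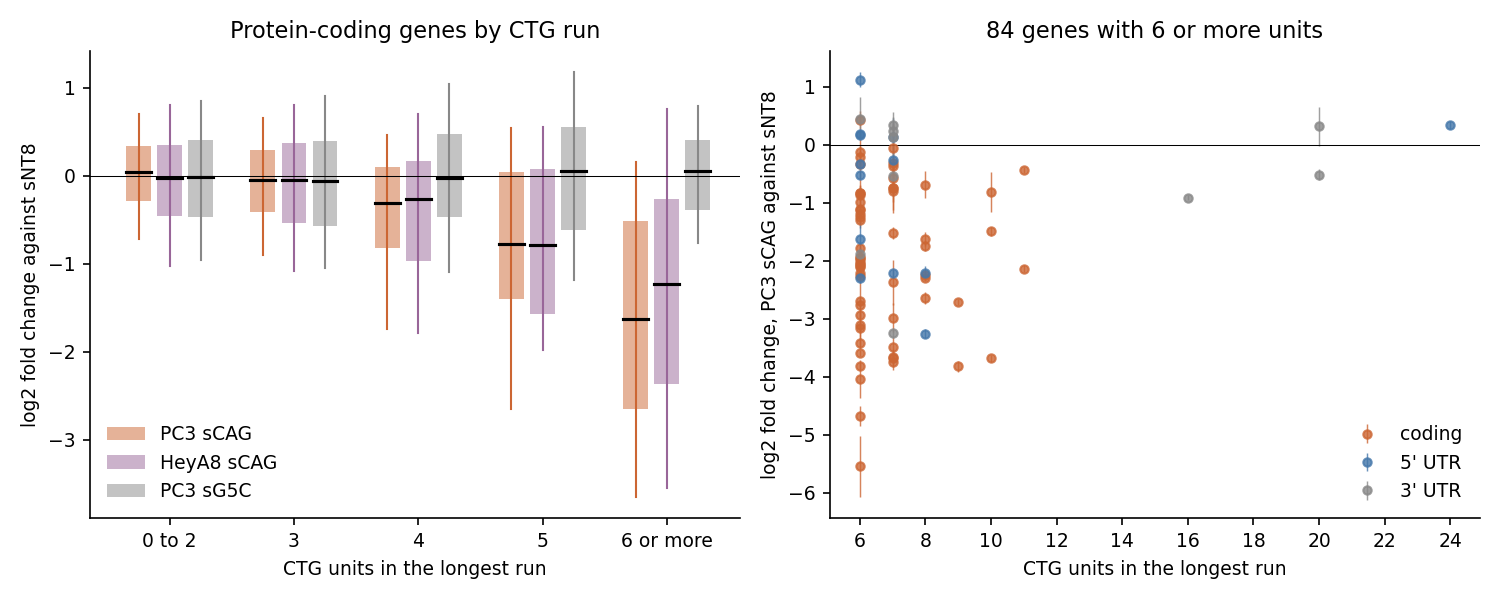
Left: log2 fold change against sNT8 of tested protein-coding genes by the number of CTG units in their longest run, for sCAG in PC3, sCAG in HeyA8 and sG5C in PC3; bars span the 25th to 75th percentile, thin lines the 10th to 90th, and black lines mark the median. Right: log2 fold change with its standard error for each of the 84 tested genes with 6 or more units in PC3, colored by the place of the run; the sCAG medians fall to -1.63 in PC3 at 6 or more units, and TCF4, with the longest run of 24 units, and DMPK, with 20, lie at 0.35 and -0.51.

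Of 116 annotated genes with at least 6 units, 84 were tested, 65 were called lower and 5 were called higher. At least a 2-fold fall was seen in 50 of the 84. Runs in coding sequence went with lower values in 52 of 61 genes (median -1.98). Among the 13 genes whose run lay in the 5' untranslated region, 8 were lower and 4 higher (median -0.33), and among 10 with the run in the 3' untranslated region, 5 were lower and none higher (0 of 10; median -0.19). The longest runs of all were not those with the largest changes. TCF4, a transcription factor gene with 24 units in the 5' untranslated region of an annotated transcript, changed by 0.35 on the log2 scale. DMPK, the kinase gene whose CTG expansion causes myotonic dystrophy, has 20 annotated units in its 3' untranslated region and changed by -0.51, with 424, 412 and 445 normalized counts in the sNT8 libraries and 285, 333 and 299 in the sCAG libraries. These values assume the run lengths of the reference annotation, and the lengths in PC3 were not measured. Nor was it measured whether PC3 expresses the transcripts that hold the runs, and values are for whole genes.

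Members in each of the 3 reading frames had like medians. The median change was -1.94 for 49 genes with in-frame leucine codons, -2.10 for 8 genes with alanine codons and -2.07 for 4 genes with cysteine codons. In 44 of the 49 leucine runs, the run began within the first 120 coding bases, where signal peptides are encoded, and 37 of these 44 genes were called lower (median -1.86). The other 17 coding runs had 15 genes lower and a median of -2.09. By the rule of the largest change, the members named included NMU, C4orf48, LGI2, BRI3BP, LRRC59, RPL14, SMO, SRPX and MLEC. NMU, the neuropeptide neuromedin U, read 37.5, 55.5 and 58.5 normalized counts in the sNT8 libraries and 1.87, 0 and 1.12 in the sCAG libraries (log2 fold change -5.55 ± 0.52 SE, adjusted p = 9.15e-10), and LGI2 read 85.3, 86.4 and 70.5 normalized counts in the sNT8 libraries and 3.75, 3.61 and 7.82 in the sCAG libraries (log2 fold change -4.04 ± 0.32 SE, adjusted p = 3.45e-11), both at low levels. MLEC, the carbohydrate-binding protein malectin of the endoplasmic reticulum, was abundant and read 9309, 8928 and 8893 normalized counts in the sNT8 libraries and 785, 750.2 and 774 in the sCAG libraries (log2 fold change -3.59 ± 0.05 SE, adjusted p = 1.02e-26).

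Several members outside that rule, chosen here after their values were seen for their known roles, carried long coding runs as well. EIF2AK3 encodes PERK, the kinase of the unfolded protein response, has 8 units and changed by -1.74 ± 0.09 SE. LRP5, a co-receptor for Wnt ligands, has 9 units and changed by -2.72 ± 0.05 SE. With 11 units each, LRP8, a receptor for apolipoprotein E, changed by -2.14, and MAP3K4, a kinase of stress signalling, by -0.44. These 2 genes have runs of equal length and differed by more than their standard errors, 0.06 for LRP8 and 0.05 for MAP3K4. The only coding-run member called higher was EFNA3, an ephrin ligand, at 0.43 (adjusted p = 0.0184, edgeR).

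The 6 libraries held between 31232377 and 41384838 reads assigned to genes, and between 33879 and 35199 genes had a read. The first principal component held 71.2% of the variance and separated the groups. Epithelial genes were expressed, with KRT8 at 1912 to 2044 normalized counts and EPCAM at 447 to 494 in the sNT8 libraries. Defining genes of the androgen axis were at or near 0, since KLK3 and FOLH1 had 0 reads in all 6 libraries. Of the markers of other cell types, PTPRC (leukocytes), DCN (fibroblasts) and CDH5 (endothelium) stayed at or below 6.56 normalized counts in every library, but other members of those lists were expressed. The summed level of the 12 leukocyte markers was 6.12 to 7.99 CPM (reads scaled to a common library total) in sNT8 and 4.59 to 5.63 in sCAG, and no leukocyte marker was called higher (0 of 4 tested) and 1 was lower. The 9 fibroblast markers summed to 23.9 to 30.2 CPM and 13.5 to 16.4 CPM, with 4 of 7 tested called lower. The 8 endothelial markers summed to 99.1 to 116 CPM and 120 to 146 CPM, with 2 of 5 tested called higher and 1 lower. KDR, a receptor for VEGF, averaged 75.3 CPM in sNT8 and 104 CPM in sCAG (log2 fold change 0.61 ± 0.10 SE, adjusted p = 0.00211), and PECAM1 averaged 30.5 and 29.3 CPM. PDGFRA, a fibroblast marker, averaged 7.11 and 2.38 CPM, and CSF1R, a leukocyte marker, 4.75 and 2.89 CPM. The part of other cell types in the results below was not tested.

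In all, 22959 genes were tested and 50.6% passed the threshold of an adjusted p of 0.05, 5879 higher (25.6%) and 5730 lower (25%). The change was at least 2-fold in 1063 of the genes called higher (4.63% of those tested) and in 1699 of those called lower (7.4%). The 3 libraries of each group did not overlap in 13156 genes (57.3%). Of the genes named below as called higher or lower after sCAG, HSPA5 alone had overlapping groups. The split depends on the scaling: with library totals alone in place of TMM factors, 4125 genes were higher and 8006 lower, and the median of all genes moved from -0.04 to -0.18. Changes near 0 should be read against that shift. Some list members had few reads in sNT8 and passed the filter on low counts through the sCAG libraries, so only a rise could be called in them. Counts of list members called higher should be read with that limit and beside the 25.6% of all genes. In the authors' deposited table, 11370 genes had an adjusted p under 0.05, 6278 higher and 5092 lower.

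Genes known to respond to interferons led the rises, and several had only a few reads without sCAG. The 12 largest included CXCL9, IDO1, CXCL10, GBP5, GBP4, AIM2, CXCL11, CASP1, EPSTI1, TRIM22 and GBP1. CXCL9, a chemokine for T cells, had 0 reads in all sNT8 libraries and 186, 188 and 285 normalized counts in the sCAG libraries, at least 72.9-fold higher than a floor of 3 reads per library. GBP1, a guanylate-binding protein that attacks vacuoles of intracellular pathogens, read 351, 610.1 and 534 normalized counts in the sNT8 libraries and 17627, 19019 and 23858 in the sCAG libraries, a 39.7-fold rise (log2 fold change 5.31 ± 0.26 SE, adjusted p = 9.55e-05). Its relatives GBP4 and GBP5 rose 85.5-fold and 89.6-fold. In HeyA8, GBP1 changed by 1.42.

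Most sensors of foreign RNA rose. Of 24 genes in the list of RNA sensors and adaptors, 23 were tested, 18 were higher and 2 lower, with a median log2 fold change of 1.08 beside -0.04 for all genes tested. DDX58, which encodes RIG-I, read 1199, 1425 and 1508 normalized counts in the sNT8 libraries and 13789, 14344 and 16921 in the sCAG libraries (log2 fold change 3.41 ± 0.12 SE, adjusted p = 5.19e-07). IFIH1, which encodes MDA5, read 548, 690.2 and 729 normalized counts in the sNT8 libraries and 4762, 4836 and 5756 in the sCAG libraries (log2 fold change 2.93 ± 0.12 SE, adjusted p = 7.75e-07). TLR3, the endosomal receptor for double-stranded RNA, was low and read 13.1, 9.60 and 13.1 normalized counts in the sNT8 libraries and 146, 149 and 165 in the sCAG libraries (log2 fold change 3.63 ± 0.22 SE, adjusted p = 1.23e-13). The sCAG libraries were above the sNT8 libraries in all 3 genes, without overlap.

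EIF2AK2, which encodes the kinase PKR, rose 2.52-fold from already high levels, with 7237, 8208 and 8442 normalized counts in the sNT8 libraries and 19163, 20059 and 22307 in the sCAG libraries. ADAR, the editing enzyme that marks cellular double-stranded RNA, rose 2.12-fold. The oligoadenylate synthetases rose as well, OAS1 by 3.10, OAS2 by 3.45, OAS3 by 2.33 and OASL by 3.63 on the log2 scale. Downstream genes moved less: the adaptor MAVS changed by 0.42 and the kinase TBK1 by 0.07, the second not called. DHX58, the third RIG-I-like receptor, had at most 1.12 normalized counts in any library and was not tested.

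Interferon transcripts themselves were scarce in both groups at this time point. Of 22 ligand genes, 2 passed the filter on low counts and neither was called (0 of 2). IFNB1, interferon beta, read 0.937, 5.33 and 1.01 normalized counts in the sNT8 libraries and 1.87, 2.71 and 6.70 in the sCAG libraries. IFNL1, a type III interferon, read 3.75, 2.13 and 2.02 normalized counts in the sNT8 libraries and 1.87, 4.51 and 6.70 in the sCAG libraries. IFNE, interferon epsilon, was the ligand with steady reads, at 129, 153 and 161 normalized counts in the sNT8 libraries and 152, 138 and 146 in the sCAG libraries (log2 fold change -0.05 ± 0.14 SE, adjusted p = 0.77). A difference in IFNB1 or IFNL1 was not detectable at this depth, and earlier times were not measured.

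The signalling chain below the receptors was expressed and in large part higher. Of 21 genes of receptors, JAK-STAT and feedback, 20 were tested, 14 were higher and 2 lower (median 0.76). IFNAR1, a chain of the type I receptor, rose by 0.44, and IFNAR2, its partner, read 29.99, 27.7 and 21.2 normalized counts in the sNT8 libraries and 37.5, 21.6 and 43.6 in the sCAG libraries and was not called. IFNGR2, a chain of the interferon gamma receptor, fell by 1.12 on the log2 scale. STAT2, part of the factor that type I interferons activate, rose 6.04-fold with 2809.8, 3028 and 3010.2 normalized counts in the sNT8 libraries and 17035, 17933 and 19738 in the sCAG libraries. STAT3, which PC3 is known to lack, had at most 1.01 normalized counts in any library.

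IRF1, a transcription factor induced by interferons, read 423, 589 and 554 normalized counts in the sNT8 libraries and 5470.4, 5647 and 6311 in the sCAG libraries (log2 fold change 3.45 ± 0.11 SE, adjusted p = 3.08e-08). IRF7, which amplifies type I interferon production, rose by 2.34 and IRF9, the DNA-binding part of the complex with STAT2, by 0.9963. Feedback inhibitors rose too, SOCS1 by 1.98 and USP18, which detaches ISG15 and dampens the type I receptor, by 2.34. Values of sG5C in the same line stood at 3.70 for IRF1, 1.86 for SOCS1 and 0.17 for IRF7. Tested directly, sCAG and sG5C differed by -0.24 ± 0.14 SE in IRF1 (adjusted p = 0.188, edgeR) and by 2.19 ± 0.07 SE in IRF7 (adjusted p = 3.98e-23).

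**Figure D2:**
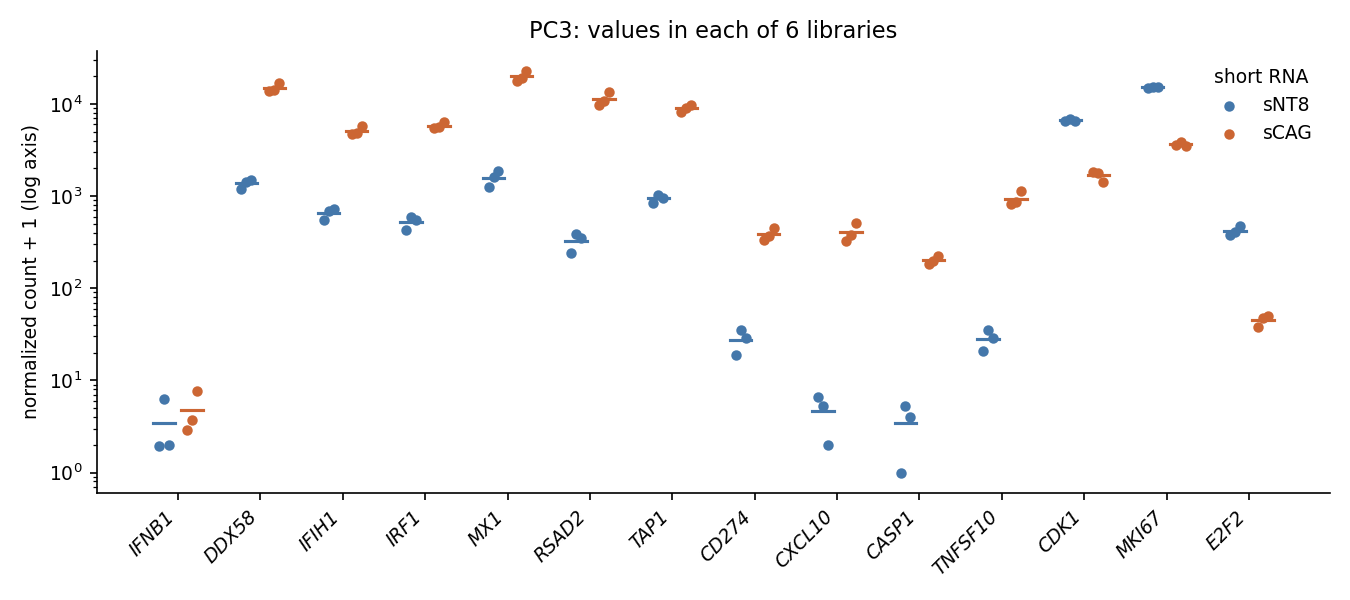
Normalized counts plus 1 on a log axis for 14 genes in the 3 sNT8 libraries (blue) and 3 sCAG libraries (orange) of PC3; each point is 1 library and each short line a group mean. IFNB1 stays within a few counts in both groups, the interferon-stimulated genes lie higher in all 3 sCAG libraries, and CDK1, MKI67 and E2F2 lie lower.

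Antiviral effector genes rose nearly throughout: 26 of 28 tested members were higher and 1 was lower, with a median of 2.51. MX1, a GTPase that traps viral particles, read 1259.7, 1601 and 1872 normalized counts in the sNT8 libraries and 17533, 19192 and 22885 in the sCAG libraries (log2 fold change 3.62 ± 0.20 SE, adjusted p = 0.000149). RSAD2, which encodes viperin, read 243, 389 and 354 normalized counts in the sNT8 libraries and 9757, 10659 and 13339 in the sCAG libraries (log2 fold change 5.07 ± 0.24 SE, adjusted p = 7.12e-05). IFIT1, which binds foreign 5' ends of RNA, read 1131, 1338 and 1623 normalized counts in the sNT8 libraries and 14779, 15288 and 17690.4 in the sCAG libraries (log2 fold change 3.51 ± 0.17 SE, adjusted p = 5.65e-05). ISG15, a ubiquitin-like modifier, rose 6.69-fold to 21559 to 26134 normalized counts. The other members named were TRIM22 (5.41), MX2 (4.55), RTP4 (4.19) and IFITM1 (3.98). The exception was APOBEC3B, a cytidine deaminase gene whose transcript follows the cell cycle in many cancer lines, which read 118, 171 and 182 normalized counts in the sNT8 libraries and 42.2, 61.3 and 44.7 in the sCAG libraries and fell by 1.69 on the log2 scale.

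Promoters were read because so many of these genes moved together. The letters GAAANNGAAA, a core of the interferon-stimulated response element (ISRE), and TTCNNNGAA, the gamma-activated site (GAS) to which STAT dimers bind, were searched on both strands in the 250 bases before the start of each gene (RefSeq, GRCh38.p14). Both patterns can overlap. Promoter sequences were matched for 11434 of 13970 tested protein-coding genes, and 2.53% of these held the ISRE letters and 5.80% the GAS letters. Among 46 matched genes called higher by at least 8-fold, 30.4% held the ISRE letters and 19.6% the GAS letters. For 515 genes higher by 2- to 8-fold the shares were 7.96% and 8.16%. For 787 genes lower by at least 2-fold they were 1.91% and 4.07%. In the antiviral list 14 of 21 matched promoters held the ISRE letters, in the MHC class I list 7 of 18, and in the mitosis list none (0 of 25). The GAS letters did not follow the rises in these lists. They were held by 2 of 21 antiviral promoters (9.52%), 0 of 18 of MHC class I and 4 of 25 of the mitosis list (16%), whose genes fell. A match is a description of letters and not a bound site.

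Promoters of 4 genes that rose are printed from 5' to 3' in the direction of the gene, ending at the base before its start, with every match to either pattern in capitals. They were chosen after the search because each holds an ISRE match. Others that were read did not: GBP4, RSAD2, PSMB9 and STAT2 held neither pattern, and CXCL11 and TLR3 held only the GAS letters. No more than the listed start of each gene was read, so a match before another start would be missed. The start used in PC3 was not tested.
CXCL9: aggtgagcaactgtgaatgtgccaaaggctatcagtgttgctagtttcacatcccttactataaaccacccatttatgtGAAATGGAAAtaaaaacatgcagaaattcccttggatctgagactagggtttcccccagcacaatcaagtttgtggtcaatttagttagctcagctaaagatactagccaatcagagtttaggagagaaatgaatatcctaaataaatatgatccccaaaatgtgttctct
CXCL10: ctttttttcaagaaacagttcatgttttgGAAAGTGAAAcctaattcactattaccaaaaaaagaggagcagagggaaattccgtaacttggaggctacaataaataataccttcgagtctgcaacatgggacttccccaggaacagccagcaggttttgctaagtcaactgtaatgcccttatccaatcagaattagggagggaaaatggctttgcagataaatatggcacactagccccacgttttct
GBP1: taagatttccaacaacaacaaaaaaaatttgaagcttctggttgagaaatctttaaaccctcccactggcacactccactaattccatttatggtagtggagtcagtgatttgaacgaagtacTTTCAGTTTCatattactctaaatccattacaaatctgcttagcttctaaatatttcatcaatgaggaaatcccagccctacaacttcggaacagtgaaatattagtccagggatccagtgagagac
TAP1: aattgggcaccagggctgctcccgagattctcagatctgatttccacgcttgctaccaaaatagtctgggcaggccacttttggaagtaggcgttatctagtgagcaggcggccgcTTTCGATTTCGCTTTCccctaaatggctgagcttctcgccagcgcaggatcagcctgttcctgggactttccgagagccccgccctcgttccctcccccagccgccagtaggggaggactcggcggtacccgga

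The CXCL9 stretch lies at chr4:76007510-76007759, minus strand, with 1 ISRE match that begins 171 bases before the start. That of CXCL10 lies at chr4:76023498-76023747, minus strand, with 1 ISRE match 221 bases before the start. GBP1 has its match 127 bases before the start, within chr1:89065209-89065458, minus strand. TAP1 has 2 overlapping matches, the nearer 128 bases before the start, within chr6:32853705-32853954, minus strand. None of the 4 stretches held the GAS letters.

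Genes of antigen presentation by MHC class I rose from the proteasome to the cell surface. Of 22 members, all tested, 20 were higher and 2 lower (median 1.64). PSMB9, a catalytic subunit of the immunoproteasome, read 100.3, 133 and 108 normalized counts in the sNT8 libraries and 1437, 1555 and 1775 in the sCAG libraries (log2 fold change 3.77 ± 0.10 SE, adjusted p = 1e-19). TAP1, which carries peptides into the endoplasmic reticulum, read 838, 1031 and 959 normalized counts in the sNT8 libraries and 8171, 9044 and 9838 in the sCAG libraries (log2 fold change 3.23 ± 0.08 SE, adjusted p = 1.21e-12). NLRC5, the transactivator of class I genes, rose 10.7-fold, with 538, 765 and 771 normalized counts in the sNT8 libraries and 6606, 7752 and 8359 in the sCAG libraries. At the surface end, HLA-B rose by 1.98, HLA-E by 2.48 and HLA-F by 1.87, and B2M, the shared light chain, read 14665, 18253 and 17306 normalized counts in the sNT8 libraries and 49747, 54506 and 59164 in the sCAG libraries. HLA genes are similar in sequence, so reads may be split among them. The 2 lower members were the chaperones CALR (-0.47) and CANX (-0.11), which also serve all glycoproteins.

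On the list of MHC class II genes and their regulators, 8 of 16 members were tested, 6 were higher and 1 lower. RFX5 and RFXANK, parts of the factor that binds class II promoters, rose by 1.10 and 0.58 on the log2 scale. CIITA, its master regulator, read 92.8, 41.6 and 65.5 normalized counts in the sNT8 libraries and 147, 129 and 124 in the sCAG libraries (log2 fold change 0.96 ± 0.21 SE, adjusted p = 0.000477). HLA-DRA had 0 reads in the sNT8 libraries and 14.99, 16.2 and 23.5 normalized counts in the sCAG libraries, at least 6.05-fold above the floor of 3 reads per library. CD74, the invariant chain, read 72.2, 80.002 and 87.7 normalized counts in the sNT8 libraries and 72.1, 82.1 and 103 in the sCAG libraries and was not called. CTSS, a protease that trims the invariant chain, read 2.81, 8.53 and 12.1 normalized counts in the sNT8 libraries and 67.5, 102 and 126 in the sCAG libraries (log2 fold change 3.62 ± 0.34 SE, adjusted p = 5.92e-09).

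Ligands that restrain T cells rose as well. CD274, which encodes PD-L1, read 17.8, 34.1 and 28.2 normalized counts in the sNT8 libraries and 335, 369.7 and 448 in the sCAG libraries, a 14.1-fold rise (log2 fold change 3.82 ± 0.18 SE, adjusted p = 1.84e-15). PDCD1LG2, which encodes PD-L2, rose by 2.75 and LGALS9, galectin-9, by 3.78, both from under 30 normalized counts. IDO1, which breaks down tryptophan, read 3.75, 14.9 and 18.1 normalized counts in the sNT8 libraries and 1940.3, 1991 and 2516 in the sCAG libraries, a 173-fold rise. In this list 10 of 11 tested members were higher, and the exception was NECTIN2, an adhesion molecule and ligand of TIGIT, which read 1395, 1325 and 1294 normalized counts in the sNT8 libraries and 174, 208 and 250.2 in the sCAG libraries and fell 6.53-fold.

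Of 31 chemokine and cytokine genes, 23 were tested and 21 were called higher, where 25.6% of all tested genes were higher. None was lower (0 of 23), and the median was 1.61, which is the same with CXCL9 at its lower bound. Members with few or no reads in sNT8, such as CXCL9 and CXCL10, passed the filter on low counts through the sCAG libraries. Only a rise could be called in them, so the count of 0 lower is in part set by the filter. CXCL10, a ligand of the chemokine receptor CXCR3 on T cells, read 5.62, 4.27 and 1.01 normalized counts in the sNT8 libraries and 325, 378 and 516 in the sCAG libraries (log2 fold change 6.70 ± 0.29 SE, adjusted p = 1.53e-13). CXCL11, with the same receptor, read 8.44, 4.27 and 14.1 normalized counts in the sNT8 libraries and 622, 711 and 965 in the sCAG libraries. IL6 read 18.7, 14.9 and 17.1 normalized counts in the sNT8 libraries and 23.4, 47.8 and 54.7 in the sCAG libraries (log2 fold change 1.25 ± 0.33 SE, adjusted p = 0.00211), a smaller change than in HeyA8, where it was 4.27 (test of the difference, adjusted p = 9.89e-08, edgeR). TNF and CCL5 remained too low to test, at most 12.6 normalized counts in any library.

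Feedback genes of NF-kB were among those that rose. NFKBIA, the inhibitor that returns NF-kB to the cytosol, rose 2.05-fold, TNFAIP3, which encodes A20, 3.54-fold, and BIRC3, which encodes the ubiquitin ligase cIAP2, 8.25-fold. BIRC3 read 85.3, 94.9 and 89.7 normalized counts in the sNT8 libraries and 752, 685 and 845 in the sCAG libraries. Among subunits, RELB rose by 1.09 and NFKB2 by 0.33. Of 19 tested members, 12 were higher and 3 lower (median 0.48).

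Inflammasome genes did not share a direction. AIM2, a sensor of cytosolic DNA, read 0.937, 5.33 and 10.1 normalized counts in the sNT8 libraries and 429, 484 and 500.5 in the sCAG libraries (log2 fold change 6.40 ± 0.24 SE, adjusted p = 6.98e-17). CASP1, the inflammatory caspase, read 0, 4.27 and 3.02 normalized counts in the sNT8 libraries and 182, 195 and 221 in the sCAG libraries (log2 fold change 6.30 ± 0.32 SE, adjusted p = 3.81e-15). GSDMD, the pore-forming substrate of CASP1, rose 1.63-fold, and IL1B, which CASP1 matures, read 429, 1060.3 and 837 normalized counts in the sNT8 libraries and 3569, 4686 and 4289.9 in the sCAG libraries (log2 fold change 2.41 ± 0.35 SE, adjusted p = 0.00544). PYCARD, the adaptor ASC that links AIM2 to CASP1, was nearly absent, with 12.2, 6.40 and 7.05 normalized counts in the sNT8 libraries and 0.937, 0.902 and 0 in the sCAG libraries, and too low to test. CARD16, next to CASP1 in the genome and similar in sequence, had 0 reads in sNT8 and 39.3, 55.9 and 46.9 normalized counts in sCAG, at least 15.7-fold above the floor, and its reads may be shared with CASP1. The list as a whole had 8 higher and 2 lower of 15 tested (median 0.18).

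Genes of the extrinsic death pathway rose in 16 of 22 tested members and fell in 2, with a median of 0.60. TNFSF10, the death ligand TRAIL, read 19.7, 34.1 and 28.2 normalized counts in the sNT8 libraries and 813, 854 and 1127 in the sCAG libraries, a 33.4-fold rise (log2 fold change 5.06 ± 0.17 SE, adjusted p = 1.47e-14). Its receptor TNFRSF10B rose 1.46-fold, and FAS rose 2.74-fold with 305, 334 and 377 normalized counts in the sNT8 libraries and 863, 928 and 1056 in the sCAG libraries. The ligand of FAS, FASLG, had at most 7.82 normalized counts. Initiator caspases rose, CASP8 by 1.11 and CASP10 by 2.09. Inhibitors moved both ways: CFLAR, the inhibitor of CASP8, rose by 0.68, XIAP by 0.99, and BIRC5, survivin, which peaks in mitosis, fell by 1.95 on the log2 scale. XAF1, an antagonist of XIAP, read 36.6, 89.6 and 65.5 normalized counts in the sNT8 libraries and 1076, 1171 and 1415 in the sCAG libraries (log2 fold change 4.24 ± 0.24 SE, adjusted p = 7.88e-06), and MLKL, the effector of necroptosis, rose 2.22-fold.

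The BCL2 family had no common direction, with 7 of 17 tested members higher and 4 lower (median 0.13). BMF, a BH3-only activator of cell death, read 51.5, 72.5 and 45.3 normalized counts in the sNT8 libraries and 335, 390.4 and 417 in the sCAG libraries (log2 fold change 2.72 ± 0.15 SE, adjusted p = 2.96e-14). On the side of survival, BCL2L1, which encodes BCL-XL, rose 2.47-fold and MCL1 rose 2.01-fold with 13286, 11357 and 11555 normalized counts in the sNT8 libraries and 24515, 24639.8 and 25158 in the sCAG libraries, whereas BCL2 fell by 0.78 on the log2 scale. BAK1, an effector of the mitochondrial pore, rose by 1.33. PMAIP1, which encodes NOXA, rose by 0.80, and BCL2L11, which encodes BIM, changed by 0.11 and was not called.

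Proliferation genes fell together. All 30 members of the mitosis list were tested and called lower, by 0.92 to 2.22 on the log2 scale (median -1.56), where 25% of all tested genes were lower. MKI67, the proliferation marker Ki-67, read 15072, 15124 and 15353 normalized counts in the sNT8 libraries and 3613, 3829.7 and 3501 in the sCAG libraries (log2 fold change -2.09 ± 0.04 SE, adjusted p = 5.74e-23). CDK1, the kinase that starts mitosis, read 6531, 6865 and 6479 normalized counts in the sNT8 libraries and 1843, 1789.9 and 1419.9 in the sCAG libraries (log2 fold change -2.0048 ± 0.09 SE, adjusted p = 1.06e-08). PLK1, a kinase of spindle and centrosome, fell 2.85-fold and AURKB, a kinase of the chromosomal passenger complex, 4.67-fold. In bulk RNA, fewer dividing cells and less of these transcripts per cell cannot be told apart.

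DNA replication genes fell in 40 of 41 members, all tested, with a median of -1.56. MCM2, part of the replicative helicase, read 4953, 5032 and 5279 normalized counts in the sNT8 libraries and 1390.3, 1441 and 1369 in the sCAG libraries (log2 fold change -1.89 ± 0.05 SE, adjusted p = 2.94e-21). CDC6, which loads that helicase, fell 4.68-fold, MCM10 4.86-fold and ORC1, of the origin recognition complex, 5.15-fold. The member not called was POLD2, a small subunit of polymerase delta, at 0.10. G1 regulators were mixed, 13 lower and 9 higher of 26. E2F2, a transcription factor that drives S phase genes, read 379, 405 and 476 normalized counts in the sNT8 libraries and 36.5, 46.9 and 49.2 in the sCAG libraries and fell 9.73-fold, E2F1 fell 3.65-fold, and CCNE1, cyclin E1, fell 2.90-fold. CDKN1A, the cyclin-dependent kinase inhibitor p21, rose 2.37-fold with 677, 845 and 682 normalized counts in the sNT8 libraries and 1583, 1795 and 1958 in the sCAG libraries, and CCND1, cyclin D1, and MYC rose by 0.47 and 0.54 on the log2 scale.

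Known targets of p53 did not share a direction, 9 higher and 7 lower of 22 tested (median 0.13). GDF15, a secreted stress cytokine, read 2572, 2552 and 2392 normalized counts in the sNT8 libraries and 7529.6, 7629.5 and 8311 in the sCAG libraries (log2 fold change 1.61 ± 0.05 SE, adjusted p = 6.86e-20), and TP53INP1 rose by 1.85. MDM2, the ubiquitin ligase of p53, rose by 0.22, against 2.08 in HeyA8 (test of the difference, adjusted p = 2.04e-25, edgeR). With library totals alone the change of MDM2 was 0.08 and no longer called. BTG2, which slows the cell cycle, fell by 1.30 in PC3 and changed by 0.95 in HeyA8.

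**Figure D3:**
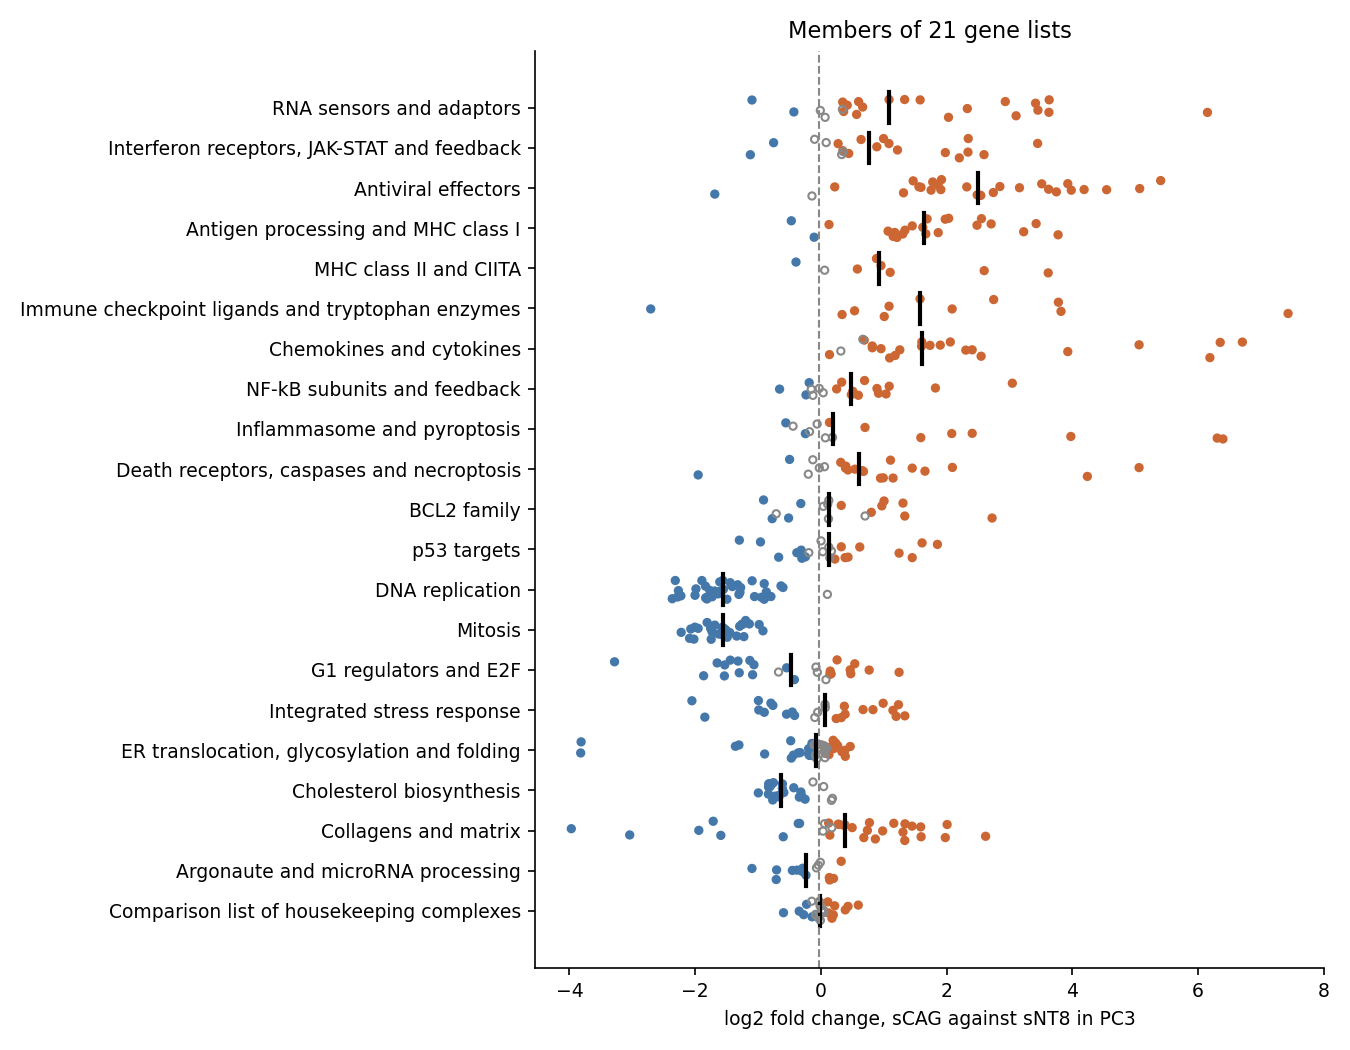
Log2 fold change, sCAG against sNT8 in PC3, of each tested member of 21 gene lists; filled points passed the threshold (orange higher, blue lower), open points did not, black lines are list medians and the dashed line is the median of all genes tested, and genes with 0 reads in sNT8 are drawn at their lower bound. Antiviral effectors (median 2.51) and MHC class I (1.64) lie to the right, mitosis (-1.56) and DNA replication (-1.56) to the left, and the comparison list of housekeeping complexes lies around 0 (-0.01).

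Genes of the integrated stress response, many of them under ATF4, did not share a direction, 11 higher and 10 lower of 25 (median 0.07). DDIT3, which encodes the stress factor CHOP, read 246, 331 and 232 normalized counts in the sNT8 libraries and 595, 572 and 662 in the sCAG libraries (log2 fold change 1.15 ± 0.11 SE, adjusted p = 5.52e-09). PPP1R15A, which restores translation after stress, rose 2.35-fold. ATF4 itself rose by 0.24, a change that was not called with library totals alone (0.10). Serine synthesis enzymes fell, with PHGDH, its first enzyme, at 4656, 4573 and 4307 normalized counts in the sNT8 libraries and 1067, 1118 and 1156 in the sCAG libraries, a 4.15-fold fall, and PSAT1, the next in the pathway, 3.60-fold. ATF3 was called higher (1.33, adjusted p = 0.0336, edgeR) but not without the sNT8 library A (1.21), the sNT8 library C (1.26), the sCAG library B (1.28) or the sCAG library C (1.16).

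The secretory machinery of the endoplasmic reticulum, into which many long-run genes send their proteins, had a median near that of all genes. Of 42 members, 18 were lower and 10 higher (median -0.08), and with library totals alone 24 were lower and 5 higher. PRKCSH and LRRC59 fell far below the rest, followed by the receptor of the signal recognition particle, SRPRA (-1.30) and SRPRB (-1.36). GANAB, the partner of PRKCSH in glucosidase II, rose by 0.27, with 12921, 12907 and 12772 normalized counts in the sNT8 libraries and 15479, 16523 and 15545 in the sCAG libraries. HSPA5, the chaperone BiP, read 16924, 19602 and 17191 normalized counts in the sNT8 libraries and 15121, 17210.4 and 16467 in the sCAG libraries (log2 fold change -0.17 ± 0.05 SE, adjusted p = 0.0114), and its groups overlapped.

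Cholesterol biosynthesis genes were lower in 20 of 24 members and higher in none (0 of 24), with a median of -0.64. MVK, mevalonate kinase, read 3065, 3201 and 2939 normalized counts in the sNT8 libraries and 1744, 1896 and 1637 in the sCAG libraries (log2 fold change -0.83 ± 0.05 SE, adjusted p = 7.13e-13), and HSD17B7 changed by -0.9956. HMGCS1, which makes HMG-CoA, read 7507, 10255 and 8406 normalized counts in the sNT8 libraries and 4721, 6085 and 4916 in the sCAG libraries (log2 fold change -0.77 ± 0.17 SE, adjusted p = 0.0196) and was not called without the sNT8 library C, the sCAG library A or the sCAG library C. Medians of the same list were 0.05 in HeyA8 and 0.17 after sG5C, and 17 of 24 members were lower in PC3 than in HeyA8 by the test of the difference.

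Matrix genes changed in both directions, 22 higher and 8 lower of 33 tested (median 0.38). COL5A1, a chain of type V collagen with 6 coding CTG units, read 4057, 3625 and 3606 normalized counts in the sNT8 libraries and 986, 1004 and 1017 in the sCAG libraries (log2 fold change -1.94 ± 0.06 SE, adjusted p = 2.56e-20), and SPARC, a matrix-binding glycoprotein, fell 8.24-fold. CDH1, E-cadherin, read 107, 92.8 and 107 normalized counts in the sNT8 libraries and 17.8, 10.8 and 23.5 in the sCAG libraries and fell 6.11-fold, while CDH2, N-cadherin, rose 2.54-fold. Other epithelial genes went both ways: the keratins KRT8 and KRT7 rose by 0.76 and 2.16 on the log2 scale, and EPCAM and ESRP1 changed by -0.69 and -0.79. VIM, the mesenchymal marker vimentin, changed by -0.37. In the list of epithelial and PC3 line genes, 5 of 10 tested members were higher and 5 lower (median 0.27). Among RNA interference genes, AGO2, the slicing Argonaute, changed by -0.24, AGO1 by -0.71, DICER1 by -0.45 and TARBP2, the partner of Dicer, by -1.10, all called lower. Of these 15 genes, 8 were lower and 4 higher, and with library totals alone 11 were lower and none higher (0 of 15). Among 15 genes known for CAG or CTG repeat diseases, 13 were tested, 5 were higher and 5 lower (median 0.09). ATXN1 rose by 0.96 with 3603, 3902 and 4056 normalized counts in the sNT8 libraries and 7432, 7708 and 7792 in the sCAG libraries, and HTT, the huntingtin gene, read 9750.1, 9517 and 9706 normalized counts in the sNT8 libraries and 10454, 10749 and 10411 in the sCAG libraries and was not called. In the comparison list of chaperonin, coatomer and RNA polymerase II genes, 8 of 26 were higher and 5 lower (median -0.01), which became 3 higher and 13 lower with library totals alone.

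The change after sCAG differed from that in HeyA8 in many genes, by the test of the difference between the 2 lines over 12 libraries. Of 25764 genes, 40.1% differed, 6351 with the higher log2 fold change in PC3 (24.7%) and 3988 with the lower one (15.5%). Leaving out any 1 of the 3 HeyA8 sCAG libraries, A, B or C, moved the share with the higher change in PC3 among the genes that differed from 61.4% to between 50.8% and 51.3%. That share was 52.9% with library totals alone, 53.1% with no filter and 56.1% with a count minimum of 50. In HeyA8 itself 59.7% of 21897 genes were called, 28.8% higher and 30.9% lower, with all 30 mitosis genes lower, and 12 higher and 10 lower of 24 antiviral effectors. All 30 mitosis genes differed, each with the smaller fall in PC3, where the median was -1.56 against -5.55 in HeyA8. CDK1 averaged 201 CPM in sNT8 and 45.5 CPM in sCAG of PC3, and 149.6 and 0.838 CPM in HeyA8 (adjusted p of the difference = 1.96e-18, edgeR). Antiviral effectors differed in the opposite sense, with 25 of 30 tested members higher in PC3 and none lower (0 of 30). In HeyA8 alone, 24 members of this list passed the filter on low counts. RSAD2 averaged 0 CPM in both HeyA8 groups, so not every member had a measurable change there. MX1 averaged 0.901 CPM in sNT8 and 0.344 CPM in sCAG of HeyA8, and 47.96 and 535 CPM in PC3, so the lines also differed before sCAG. The line cannot be told apart from any difference in how the lines were prepared.

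**Figure D4:**
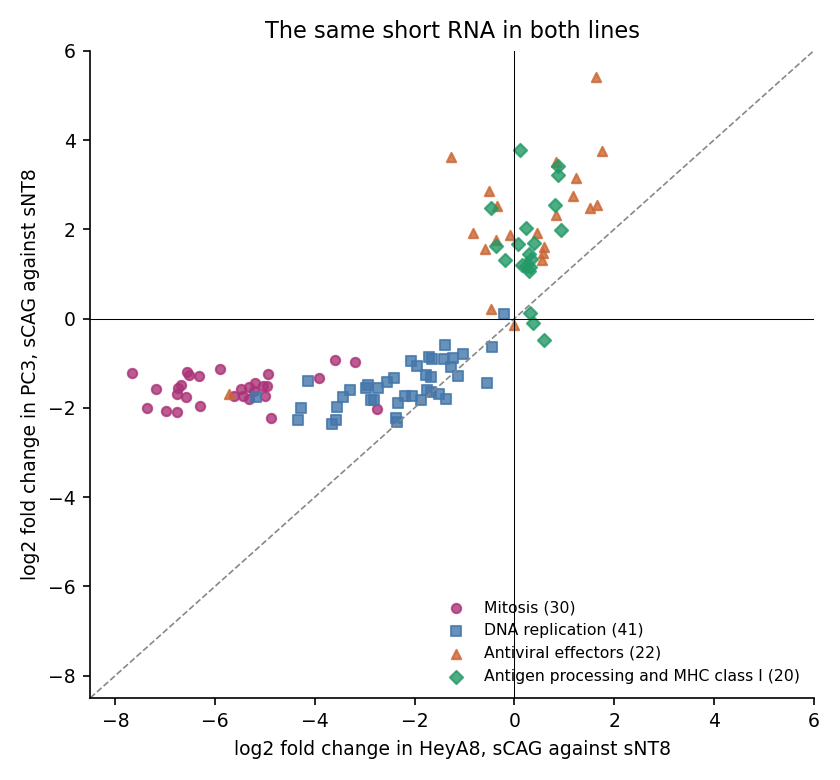
Log2 fold change of sCAG against sNT8 in HeyA8 (horizontal) and in PC3 (vertical) for the tested members of 4 gene lists, with the number drawn in brackets and the line of equality dashed. Mitosis genes lie at -0.92 to -2.22 in PC3 but reach below -7 in HeyA8, and most antiviral genes lie above the line.

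By the rule for named genes, the 6 largest differences toward PC3 were NEK2, DEPDC1, SHISA3, PIF1, HMMR and TOP2A, most of them with known roles in mitosis or in DNA unwinding. TOP2A, the topoisomerase that untangles sister chromatids, read 379.8, 383 and 376 CPM in sNT8 and 126, 117 and 106 CPM in sCAG of PC3. In HeyA8 it read 625, 639 and 619 CPM and then 3.98, 3.76 and 4.2001 CPM. The difference between the log2 fold changes was 5.68 ± 0.08 SE (adjusted p = 9.37e-35, edgeR). In the opposite direction were FLG, HAS2, PAG1, SYT16, ITGB8 and PPFIA4. HAS2, a hyaluronan synthase, fell from 14.002, 14.3 and 15.3 to 6.38, 6.33 and 5.55 CPM in PC3 and rose from 0.638, 1.23 and 0.975 to 12.3, 17.1 and 16.1 CPM in HeyA8.

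Against sG5C in the same line, 62.7% of 24618 genes differed, 7780 higher with sCAG (31.6%) and 7650 lower (31.1%). Of the 84 genes with at least 6 CTG units, 66 were lower with sCAG than with sG5C and 7 higher. Both comparisons with sNT8 share its 3 libraries, so their values are given side by side only. Mitosis genes were lower with sCAG than with sG5C in 30 of 30, and the list median after sG5C was 0.07. Antiviral effectors were higher with sCAG in 26 of 30 and lower in 4, with a median of 1.16 after sG5C. TAP1 was high with both, 243 CPM with sCAG and 242 CPM with sG5C against 28.6 CPM with sNT8, a direct difference of 0.13 ± 0.14 SE (adjusted p = 0.441, edgeR). The 6 genes most above sG5C included CXCL11, TFEC, CXCL9 and KIF26A. CXCL11 read 0.258, 0.128 and 0.432 CPM with sNT8, 17.1, 19.04 and 25.8 CPM with sCAG and 0.469, 0.238 and 0.201 CPM with sG5C, so the sCAG libraries alone stood high. The 6 most below were TMEFF2, CYP4F12, SYT11, C4orf48, PPP1R1B and SLC40A1. C4orf48 read 17.5, 14.5 and 12.9 CPM with sNT8, 13.04, 15.1 and 16.8 CPM with sG5C and 0.592, 0.435 and 0.567 CPM with sCAG. SYT11, a synaptotagmin of vesicle traffic, read 0.659, 0.736 and 1.08 CPM with sNT8, 1.05, 1.01 and 0.835 CPM with sCAG and 29.4, 30.8 and 32.97 CPM with sG5C, so the sG5C libraries alone stood apart.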

How the data were processed

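Total RNA libraries were made with a TruSeq total RNA kit after column extraction with DNase digestion, per the labels' protocols. The submitters' processing notes name TopHat, Bowtie2, HTSeq, DESeq2 and the build hg38. Neither versions nor a strand setting were at hand, so overlapping and near-identical genes are uncertain. The deposited signal, per the file headers, is the normalized count (reads divided by a size factor) of each library. The authors' tables also hold a log2 fold change, a test score and a p-value per gene. Each column was divided by its smallest non-zero value, which gave whole reads for 100% of values (tolerance 1e-06) and identical sNT8 reads in both PC3 tables. Counts recovered from the deposited values were tested with edgeR 4.0.16 (TMM, filterByExpr with a minimum of 10, robust quasi-likelihood F test, R 4.3.3), and p-values were adjusted over all genes tested. SE is the log2 fold change over the square root of F. DESeq2 1.42.0 and limma 3.58.1 (log2 of the value plus 1 or 0.1) were alternatives. CTG runs came from GENCODE 29 transcripts. Chi-square tests between replicates of a group gave 3.61 to 6.04 per degree of freedom, so replicates differed beyond counting noise. Named genes were the 12 largest rises and falls among protein-coding genes past the threshold with at least 5 CPM in the higher group and no overlap, key genes of 28 lists, up to 4 further members per list by size of change, 6 each way for the other comparisons, and 10 CTG genes. Members and lists were chosen with earlier results of these data known. Some genes that the rule names are given only in list counts or are not reported here.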

Additional observations from a re-analysis of the deposited data

Results flagged for a closer look

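The effect of sCAG differed between PC3 and HeyA8 in 10339 genes by the test of the difference itself. The genes named for the largest differences were marked by the same test, and the values are the log2 fold change in PC3 minus that in HeyA8. They were 6.50 for NEK2, a centrosome kinase, 6.27 for DEPDC1, 5.97 for SHISA3, 5.83 for PIF1, a DNA helicase, 5.75 for HMMR, a spindle and hyaluronan-binding protein, and 5.68 for TOP2A. In the other direction they were -6.73 for FLG, the skin barrier protein filaggrin, -5.17 for HAS2, -5.07 for PAG1, -4.89 for SYT16, -4.32 for ITGB8, an integrin chain, and -4.25 for PPFIA4. In HeyA8 with sCAG, NEK2, DEPDC1, SHISA3, PIF1 and HMMR averaged 0.0842 to 0.953 CPM. In HeyA8 with sNT8, FLG, HAS2, SYT16 and PPFIA4 averaged 0.124 to 0.949 CPM. The differences of these genes rest on few reads in those groups. Groups of 3 libraries were not tested for outlying samples.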

How the results depend on the processing

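The count of genes changed in PC3 stayed within 1.5 times under every alternative tool, filter and scaling, from 10152 with a count minimum of 50 to 12166 with the replicate block, and became 2762 when a fold of at least 2 was also asked. Leaving out 1 library gave 10529 to 11284 genes in PC3, 9563 to 10090 for the difference between lines and 14468 to 14939 against sG5C; the last 2 sets were chosen after seeing the data. Of genes with CTG runs, 65 of 84 were lower, which became 115 of 161 with at least 5 units, 16 of 19 with at least 8 and 52 of 61 in coding sequence only. Left-out libraries gave 62 to 65. The main test did not pair samples by replicate letter. Libraries of the same letter correlated at 0.131, 0.077 and 0.042 in their deviations from the group means, not all above 0.1. Each correlated best with its own letter, and libraries of different letters correlated at 0.019 or less. On the second principal component (8.69% of the variance), A was highest in both groups, at 26.65 in sNT8 and 25.44 in sCAG. B was lowest in both, at -22.23 and -13.86. An effect shared by letter was not tested. The fit with the replicate block called 12166 genes, 10805 between lines and 15777 against sG5C, with INSIG1 and HTT among the genes newly called higher. The block moved 3 list counts by over 1.5 times: antiviral members lower became 2, replication members higher became 1 and cholesterol members higher became 2. Of the named genes' fold changes under the alternatives, 2535 kept their call, among them 8 sign changes of genes called in neither fit, 40 kept direction but were no longer called, 16 became called and none reversed a call (0). Counts of list members moved by over 1.5 times in 57 cases and stayed within that in 671. With 3 libraries a group, genes at a few reads, such as IFNB1, limit what can be detected.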

Other observations

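Outside the protein-coding genes, where names were chosen after their values were seen, the largest rise among genes that met the same level and overlap rule was AC005515.1, a transcribed unprocessed pseudogene, with 0, 1.07 and 1.01 normalized counts in the sNT8 libraries and 208, 216 and 270.4 in the sCAG libraries. GBP1P1, a pseudogene of the guanylate-binding protein cluster, read 12.2, 29.9 and 19.1 normalized counts in the sNT8 libraries and 911, 987 and 1217 in the sCAG libraries (log2 fold change 5.65 ± 0.18 SE, adjusted p = 5.51e-14), and its reads may be shared with GBP1. Long noncoding RNAs changed in both directions: LINC00520 rose by 2.84 and LINC02009 by 2.73 on the log2 scale, while AC074135.1 changed by -2.18 and the antisense RNA AC099850.3 by -1.96, both called lower. The largest fall was RPL14P1, at -5.72 (52.9-fold), a processed copy of RPL14.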
